A study of Mus musculus with 12 samples.

Results

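The T-box transcription factors Tbx2, Tbx3, Tbx5, Tbx18 and Tbx20 were followed in the atria of mice labelled as Tbx3 and of their Controls. All probes whose platform symbol was one of these 5 genes were taken, which gave 13 of 46114 probes: 2 for Tbx2, 2 for Tbx3, 3 for Tbx5, 2 for Tbx18 and 4 for Tbx20. The Tbx3 group held 6 male Cre4-CT mice, which carry the Nppa-Cre4 transgene and the CT construct, from which Cre is meant to activate Tbx3. The Control group held 6 male Cre4 mice with the Nppa-Cre4 transgene alone, so both groups carry Cre under the name of the Nppa promoter, and no group carried CT without Cre. The labels do not give the animals' ages, nor what else CT holds. Each array is described as a biological replicate, and total RNA of whole atria was read on Illumina Sentrix Mouse-6 beadchips. The comparison was designed to ask what activation of Tbx3 does to atrial gene expression, and the arrays' own Tbx3 values are given first among the results.

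T-box factors share a DNA-binding domain and bind related DNA elements, so that activators and repressors of the family can meet at the same promoters. In the mouse heart Tbx5 activates genes of the beating chambers together with Nkx2-5 and Gata4, and Tbx20 is needed for chamber growth and can activate or repress. Tbx2, in the atrioventricular canal, and Tbx3, in the sinus node and the rest of the conduction system, repress chamber genes such as Nppa and Gja5. Tbx18, a repressor of the sinus horns, the head of the sinus node and the epicardium, completes the set.

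On GRCm38.p6 Tbx3 lies on chromosome 5 from 119670534 to 119684724 and Tbx5 on the same chromosome from 119796514 to 119885220, with 111789 bases between them. Tbx20 lies on chromosome 9 from 24720812 to 24774303, Tbx18 on chromosome 9 from 87702800 to 87731260, and Tbx2 on chromosome 11 from 85832615 to 85841948. The exon or UTR that a probe reads was not used here.

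Levels are given on a log2 scale after quantile normalization, and the deposited values were read as natural logs, a base inferred from their range. A base 2 reading would shrink every change to 0.693 of its size and leave the tests as they are. The median of all probes was 5.55, with quartiles of 5.32 and 6.11. No detection call was used, so a probe's brightness is given as a percentile, the rank of its mean level on the array, and levels of different probes are not set against each other. Arrays of one group correlated at 0.970 to 0.980, and arrays of different groups at 0.963 to 0.976. Of 9 atrial markers 1 lay under the median brightness, and Myl7, the atrial regulatory light chain, was at a percentile of 99.96. Of 6 ventricular markers 2 lay under it, among them the factor gene Irx4 at 0.904, and the rest lay above it. The mean log2 level of the ventricular markers in Control was 6.68, and that of the atrial markers 12.48. These means come from different probes and do not measure how much tissue of either kind was present. Across all probes, limma called 1592 of 46114 at an adjusted p under 0.05, which is 3.45%, with 1.77% rising and 1.68% falling.

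Of the 13 T-box probes 1 was called, the brighter probe of Tbx3, and it fell. That share of 7.69% stands against 3.45% of all probes and rests on a single probe. Of the 12 probes not called, 8 had an estimated change above 0 and 4 below, from -0.26 to 0.25, and their 95% intervals reached from -0.47 to 0.49 on the log2 scale. Changes beyond 1.39-fold down or 1.41-fold up thus lay outside the interval of each of these 12 probes. These bounds concern probe readings. No detection call was used, so at the dimmer probes they may not bound the change in the gene's RNA. At an unadjusted p under 0.05 there were 3 of 13 probes, where 12% of all probes passed. Of the 13 probes 0 separated the groups without overlap, as 2.27% of all probes did. Between them, 10 of the 13 probes lay above the median brightness and 3 below it.

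**Figure D1:**
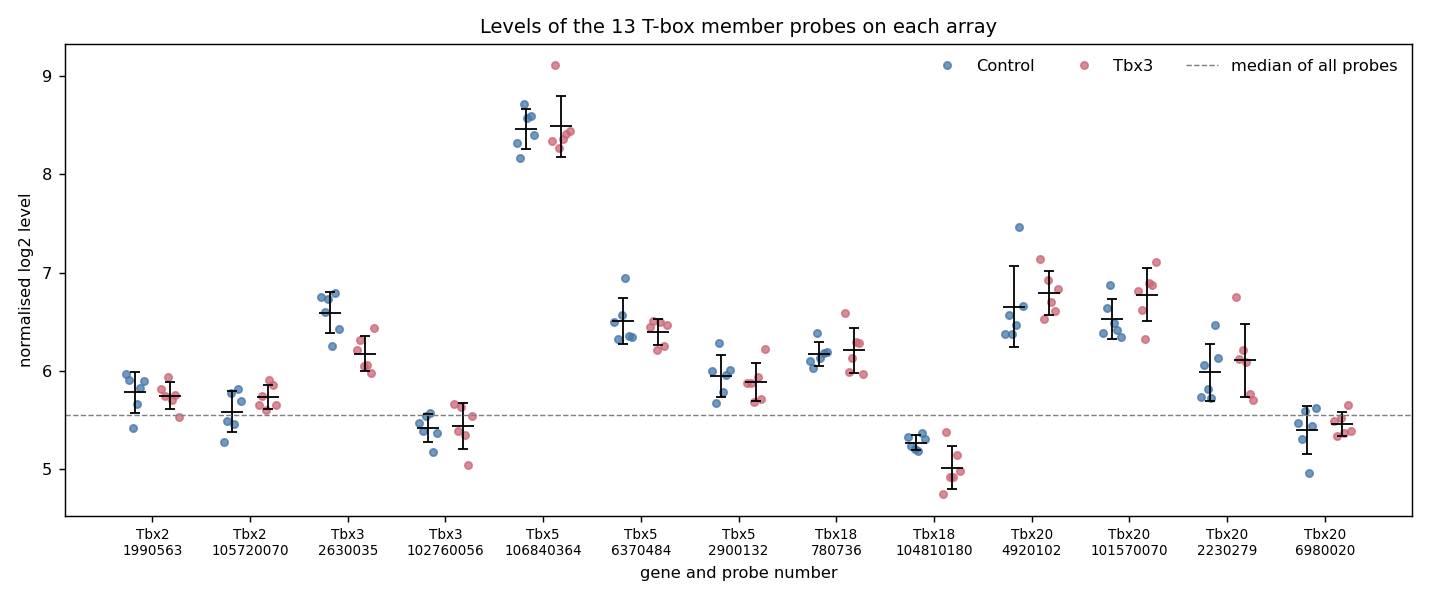
Normalised log2 level (vertical axis) of each of the 13 probes (horizontal axis) on 6 Control and 6 Tbx3 arrays. Points are arrays, black bars are the mean and SD of the group, and the dashed line is the median of all probes, 5.55. The groups overlap at every probe, and Tbx3 probe 2630035 is the one whose means, 6.59 and 6.18, differ past the threshold.

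Tbx3 is the factor that the CT construct is meant to supply, so it was examined first. Probe 2630035, at a percentile of 79.2, read 6.75, 6.60, 6.73, 6.26, 6.79 and 6.43 on Control arrays 1 to 6. On Tbx3 arrays 1 to 6 it read 6.21, 6.31, 6.05, 6.06, 5.98 and 6.44. Of the Controls, arrays 4 and 6 lay within the range of the Tbx3 group, and the other 4 lay above all Tbx3 arrays. The probe thus stood at 6.59 ± 0.21 in Control and 6.18 ± 0.18 in the Tbx3 group (SD, n = 6 each), lower by 1.34-fold (log2 change -0.42, SE 0.11, 95% interval -0.64 to -0.19, limma adjusted p = 0.0263). The call was lost when any of Control arrays 1, 3 and 5 or Tbx3 arrays 3, 4 and 5 was left out, with adjusted p up to 0.0852. Over all 12 single omissions the change ran from -0.48 to -0.38.

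The dimmer probe of Tbx3, 102760056, at a percentile of 37.8, ran from 5.17 to 5.57 in Control (median 5.43) and from 5.04 to 5.66 in the Tbx3 group (median 5.47). Both groups spread around the same level, and the change was 0.02 (95% interval -0.21 to 0.24, limma adjusted p = 0.982). With both probes averaged, Tbx3 changed by -0.20 (adjusted p = 0.364). Neither probe was higher in the arrays labelled Tbx3, so the label's own gene did not read higher there. Which part of the transcript either probe reads, and which parts of it CT carries, is not stated in the labels or files, so these probes do not check the labels, and the group is named after its label throughout. Whether either probe reads RNA of the construct is likewise unknown.

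Beside the lower Tbx3 probe other tissue markers differed between the groups. Of all genes, 2.97% rose and 2.98% fell. Of 12 fibroblast markers 4 rose and 0 fell, and their summed level on the linear scale ran from 22040 to 26510 in Control and from 26590 to 36470 in the Tbx3 group. These sums did not overlap, but the mean log2 level of the same genes did, with Control array 2 at 9.78 above Tbx3 arrays 2 and 6 at 9.59 and 9.74. Of 9 atrial muscle markers 4 fell and 0 rose, and their sums ran from 154100 to 173400 and from 112200 to 158500. The falls were those of Nppa, Myh6, Mybphl and Sln. Of 6 erythroid markers 1 rose, with sums from 12210 to 63090 and from 51750 to 86080. That gene was Slc4a1 (log2 change 0.93, limma adjusted p = 0.0484), a call lost in 12 of 23 alternatives, 8 of them single arrays left out (highest adjusted p 0.422). Skeletal muscle markers fell in 4 of 9 cases, with sums from 1674 to 2833 and from 764.9 to 1047, and smooth muscle and pericyte markers rose in 3 and fell in 3 of 10. Of 6 ventricular markers 1 rose, Myl2 (log2 change 0.86, limma adjusted p = 1.95e-05), a call lost in 0 of 23 alternatives. Among 9 endothelial, 8 leukocyte, 7 adipocyte and 6 lung markers 0 passed. The part of these differences in the Tbx3 result was not tested. In whole atria, fewer cells of a type and less RNA per cell cannot be told apart.

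Tbx2, the closest relative of Tbx3 and a repressor of the atrioventricular canal, lay above the median brightness on both probes. Probe 1990563, at a percentile of 64.2, ran from 5.42 to 5.97 in Control (median 5.86) and from 5.53 to 5.94 in the Tbx3 group (median 5.75). The Tbx3 group lay inside the Control range, and the change was -0.03 (95% interval -0.25 to 0.19, limma adjusted p = 0.965). Probe 105720070, at 58.3, ran from 5.28 to 5.82 and from 5.61 to 5.91, a change of 0.15 (95% interval -0.06 to 0.37, limma adjusted p = 0.673). The groups overlapped at both Tbx2 probes.

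Tbx18, the repressor of the sinus horns and the epicardium, gave 2 probes of different brightness. Probe 780736, at a percentile of 76.4, ran from 6.03 to 6.39 in Control (median 6.16) and from 5.97 to 6.59 in the Tbx3 group (median 6.21), a change of 0.04 (95% interval -0.18 to 0.26, limma adjusted p = 0.957). The groups lay over each other, and the Tbx3 group spread wider. Probe 104810180 lay among the dimmest probes of the array, at a percentile of 7.97. It ran from 5.18 to 5.37 in Control and from 4.75 to 5.38 in the Tbx3 group, where 5 of the 6 arrays lay under the lowest Control array and array 2 lay above the highest. Its change was -0.26 (SE 0.10), with an unadjusted p of 0.0196 that did not hold over all probes (limma adjusted p = 0.255). Of 11 markers of the epicardium, a tissue that expresses Tbx18, 1 fell and 0 rose. That gene was Lrrn4 (log2 change -0.38, adjusted p = 0.037), a call lost in 11 of 23 alternatives, 8 of them single arrays left out (highest adjusted p 0.11).

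Tbx5, the activator of chamber genes, had the brightest probe of the set, 106840364, at a percentile of 93.7. It ran from 8.17 to 8.71 in Control (median 8.48) and from 8.26 to 9.11 in the Tbx3 group (median 8.38). Tbx3 array 2 alone lay above the Controls, at 9.11, and the next Tbx3 array stood at 8.44. The change was 0.03 (SE 0.13, 95% interval -0.23 to 0.28, limma adjusted p = 0.975), and it was -0.10 without Tbx3 array 2 (adjusted p = 0.844). Probes 6370484 and 2900132, at percentiles of 80.1 and 70.5, changed by -0.11 (95% interval -0.33 to 0.12) and -0.07 (95% interval -0.29 to 0.16), with limma adjusted p of 0.826 and 0.917. None of the 3 Tbx5 probes was thus called by limma.

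Tbx20, the factor of chamber growth, was read by 4 probes, and all 4 had estimates above 0 without a call. Probe 4920102, at a percentile of 82.8, ran from 6.37 to 7.46 in Control (median 6.52) and from 6.52 to 7.14 in the Tbx3 group (median 6.77). The highest value of both groups was that of Control array 5, and the other 5 Controls lay at or under 6.66. The change was 0.14 (SE 0.14, limma adjusted p = 0.836), and 0.30 without Control array 5 (adjusted p = 0.223). Probe 101570070, at 82.1, ran from 6.35 to 6.88 and from 6.33 to 7.11, with medians of 6.45 and 6.84. Its change of 0.25 (SE 0.12, 95% interval 0.00 to 0.49) had an unadjusted p of 0.0484 and an adjusted p of 0.410 in limma. Probes 2230279 and 6980020, at 73.9 and 38.0, changed by 0.12 and 0.06 (limma adjusted p of 0.867 and 0.925).

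**Figure D2:**
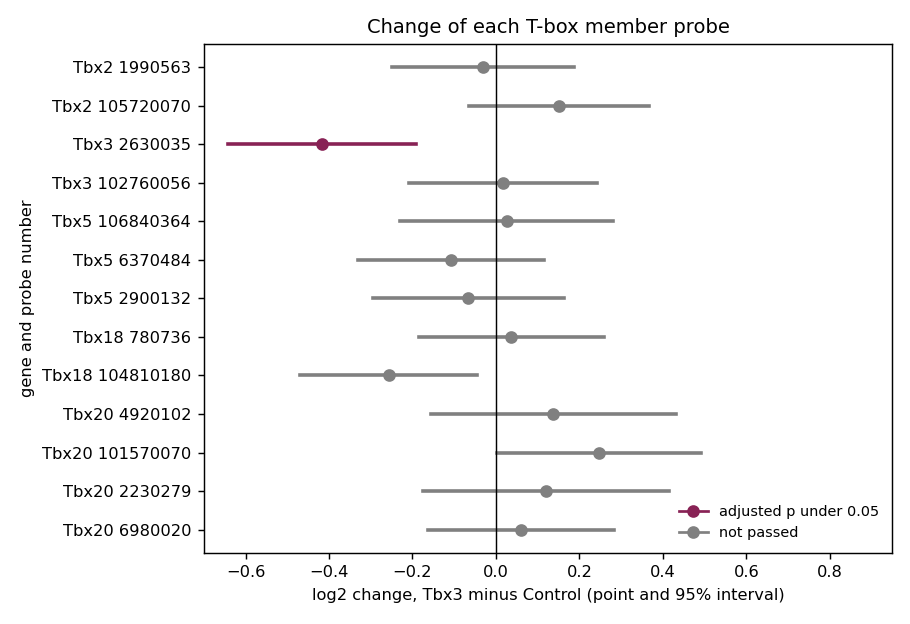
Log2 change, Tbx3 minus Control (horizontal axis), of each of the 13 probes (vertical axis), with its 95% interval from limma. The interval of Tbx3 probe 2630035, -0.64 to -0.19, is the one that belongs to a call. The intervals of the other 12 probes lie between -0.47 and 0.49.

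The rest of the family showed no call. The 8 further family members with a probe, Tbx4, Tbx6, Tbx15, Tbx19, Tbx21, Tbx22, Eomes and Mga, had 16 probes, of which 0 were called by limma, and at their brightest probes 0 had an unadjusted p under 0.05. Among genes, each by its brightest probe, 5.95% of 17658 were called. The changes of these 8 genes ran from -0.09 to 0.21, with a median of 0.05 against -0.0032 over all genes. The smallest p was that of Tbx6, known for its part in forming the somites, which changed by 0.21 (adjusted p = 0.491), followed by Eomes (0.17, adjusted p = 0.715) and Tbx21 (0.11, adjusted p = 0.809), factors of the early embryo and of T cells. Their brightest probes spanned percentiles from 1.65 to 81.8.

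Of 25 measured partners and upstream factors of the T-box genes, 5 rose, 1 fell and 19 did not pass, where 2.97% of all genes rose and 2.98% fell. The list median was 0.02. Bmp4, a ligand of the pathway that induces Tbx2 in the mouse heart, ran from 7.12 to 7.77 in Control and from 7.99 to 9.06 in the Tbx3 group, without overlap (log2 change 1.22, SE 0.15, limma adjusted p = 1.89e-06), and 1 of its 2 probes was called. Smad6, an inhibitory Smad that the same pathway induces, rose by 0.65 (SE 0.13, adjusted p = 0.00141). Bmp2, the ligand of the atrioventricular canal, changed by -0.17 (adjusted p = 0.712), so the ligands of this pathway did not share a call. The Tbx2 probes changed by -0.03 and 0.15, and neither was called. Hand2, a factor of heart muscle and its precursors, ran from 5.01 to 5.72 in Control and from 5.75 to 6.06 in the Tbx3 group (0.51, SE 0.11, adjusted p = 0.00414). Mef2c, a muscle activator that Tbx5 binds, fell by 0.45 (SE 0.10, adjusted p = 0.00816), but 3 of its 4 probes were not called, and the mean of its probes changed by -0.08 (adjusted p = 0.827).

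Of the partners that join Tbx5 at chamber promoters, Gata4 rose by 0.44 (adjusted p = 0.026, lost without any of 5 single arrays, adjusted p up to 0.0947). Nkx2-5 did not pass, with a change of -0.15 (adjusted p = 0.712). Msx1, which joins Tbx2 and Tbx3 in repressing Gja1, rose by 0.44 (adjusted p = 0.0256), a call lost without any of 6 single arrays or when its 2 probes were averaged (highest adjusted p 0.164). Msx2, its relative, changed by -0.08 (adjusted p = 0.862). Gata4 and Msx1 were named after their values were seen.

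Chamber genes that Tbx5 activates or that Tbx2 and Tbx3 repress fell in 7 of 12 cases, where 2.98% of all genes fell, and 0 rose. The list had a median of -0.42. This list was drawn up with earlier results of these arrays known, so its direction is not independent evidence. Gja5, a fast-conducting atrial connexin that Tbx5 activates, ran from 9.07 to 10.51 in Control (median 9.58) and had a median of 7.82 and a highest value of 8.38 in the Tbx3 group. It was 3.82-fold lower (log2 change -1.93, SE 0.22, limma adjusted p = 7.95e-07), called at 1 of its 4 probes, while the other 3 changed by -0.35, -0.20 and -0.12. Nppb, the neighbour of Nppa on chromosome 4, ran from 11.32 to 12.48 and from 9.95 to 11.10, and Gja1, the main connexin of working muscle, from 12.79 to 13.06 and from 11.77 to 12.22. Neither overlapped between groups, as was so for 4.04% of all genes. The 5 that did not pass were Cited1, Kcnj2, Pln, Actc1 and Bmp10, with changes from -0.10 to 0.04. The calls of Myh6 and Atp2a2 were each lost without any of 7 single arrays, that of Atp2a2 also with values as deposited, and those of Ryr2, Myh6 and Atp2a2 without Control 4 and Tbx3 6 together, which leaves 4 falls. The fibroblast and atrial muscle markers given above differed in the same arrays, and their part was not tested. The atrial muscle list shares Nppa, Myh6, Actc1 and Bmp10 with the chamber list. Nppa and Myh6 are counted among the falls of both, so these counts are not separate observations.

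Nppa, atrial natriuretic peptide, is the gene at which repression by Tbx2 and Tbx3 is best known, and its name also marks the promoter that drives Cre here. It ran from 13.33 to 13.80 in Control (median 13.58) and from 11.80 to 12.51 in the Tbx3 group (median 12.36), 2.55-fold lower and without overlap (log2 change -1.35, SE 0.12, limma adjusted p = 1.2e-08). Its promoter is shown because it holds the T-box element in full. The 250 bases before its start, chr4:148000472-148000721 on the + strand of GRCm38.p6 (RefSeq), are printed with the element in capitals.
Nppa promoter: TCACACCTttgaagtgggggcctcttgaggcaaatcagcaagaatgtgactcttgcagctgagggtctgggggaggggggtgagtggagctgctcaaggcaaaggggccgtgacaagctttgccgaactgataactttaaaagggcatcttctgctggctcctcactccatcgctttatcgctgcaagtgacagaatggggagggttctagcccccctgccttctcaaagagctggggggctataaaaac

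The letters searched were AGGTGTGA and its core AGGTGT, which lies inside it, on both strands of the 250 bases before each start. In the Nppa promoter the match is on the other strand, as TCACACCT, from base -250 to -243. The full element was found in 368 of 32851 promoters (1.12%) and the core in 3887 (11.8%). Of the chamber genes 11 had a promoter in the table, and Nppa was the one with the element. Gja5, Gja1 and Nppb had promoters in the table and no match in these windows. The core was found in the promoters of 5 other genes of the lists, shown next with the core in capitals, so that the flanks can be set beside those of Nppa.
Cdkn1b, chr6:134920204-134920229: tggcagtcgtACACCTccgagtagtc
Hcn4, chr9:58822706-58822731: aggagtaaggACACCTcctacctcag
Twist1, chr12:33957655-33957670: caactctcagACACCT
Mef2c, chr13:83523430-83523455: aagtccagtaAGGTGTggagggaagg
Cdkn1a, chr17:29093573-29093598: agaatagcccAGGTGTgggggagggg
All 5 are on the + strand of GRCm38.p6. Of these genes Mef2c fell and Twist1 rose, with the losses of these calls given beside their lists, and Cdkn1a, Cdkn1b and Hcn4 did not pass, with changes of 0.47, -0.05 and -0.09. Promoters in the table matched 2 of the 5 T-box members, Tbx18 and Tbx20, and neither holds the core. These matches describe the letters and are no evidence of binding.

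Genes of the nodes and cushions that T-box factors regulate rose in 9 of 14 cases, where 2.97% of all genes rose, and 0 fell. The list had a median of 0.57. Like the chamber list, it was drawn up with earlier results known. With a gene's probes averaged 7 rose, since Vcan and Gjc1 lost their calls (adjusted p of 0.0783 and 0.186), and without Control 4 and Tbx3 6 together 8 rose, since Twist1 lost its call (adjusted p = 0.0795). Cntn2, an adhesion molecule that marks conduction fibres, ran from 5.68 to 7.05 in Control and from 8.15 to 9.09 in the Tbx3 group. The T-type calcium channel gene Cacna1g ran from 5.81 to 6.51 and from 7.12 to 7.85, and 2 of its 3 probes were called. Sox9, a factor of cushion mesenchyme, ran from 7.03 to 7.77 and from 8.42 to 9.06, and the calcium sensor gene Vsnl1 from 5.47 to 6.01 and from 6.70 to 7.33 at its brightest probe, the one of 2 that was called. In each of these 4 genes every array of the Tbx3 group lay above every Control. Over all genes 4.04% did not overlap between groups, in either direction. Hcn4, the pacemaker channel gene, ran from 5.11 to 5.55 and from 5.07 to 5.65 at a dim probe with a percentile of 26.3. Schwann cell and neuron markers, 2 of 7, rose in the same arrays too, with sums from 376.1 to 419.3 in Control and from 459.3 to 581.5 in the Tbx3 group, and their part was not tested.

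Growth control genes listed as under T-box control did not pass in any of 8 cases (limma, 1 at an unadjusted p under 0.05), where 5.95% of all genes were called. Cdkn1a, the cell cycle inhibitor p21, ran from 7.03 to 8.67 in Control and from 7.84 to 8.73 in the Tbx3 group (log2 change 0.47, adjusted p = 0.218). Ndrg1, a growth suppressor that Tbx2 represses in human breast cancer cells, changed by 0.24 (adjusted p = 0.545). The estimates for both genes lay above 0, and both groups overlapped.

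**Figure D3:**
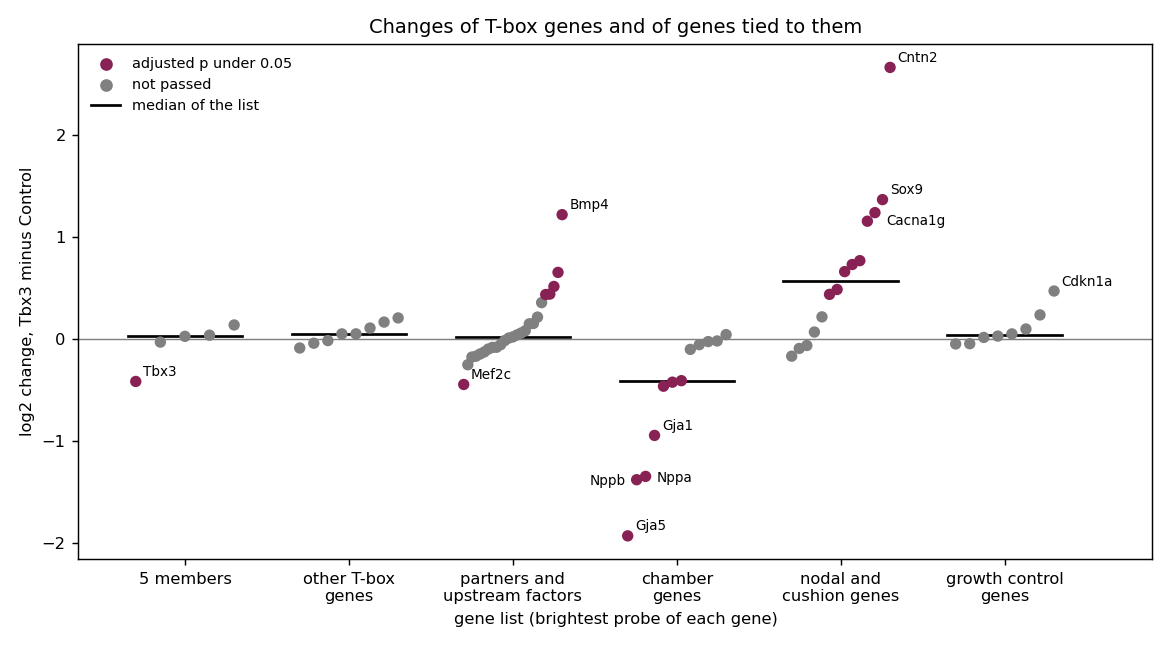
Log2 change, Tbx3 minus Control (vertical axis), of the brightest probe of each gene in 6 lists (horizontal axis). Filled purple points passed an adjusted p of 0.05 and black lines are list medians. The 5 members and the 8 other T-box genes lie close to 0 apart from Tbx3, while 7 of 12 chamber genes fell and 9 of 14 nodal and cushion genes rose. Over all genes 2.98% fell and 2.97% rose.

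Co-variation of the T-box probes was examined within each group, since the groups may form separate clusters. All 78 pairs of the 13 probes, and the 13 pairs with Nppa, were correlated over the 6 arrays of each group, which made 182 tests. With 6 arrays the smallest exact permutation p that can occur is 0.00278. By the exact permutation test of Pearson's r (2-sided), 0 of 182 passed an adjusted p of 0.05, with a lowest adjusted p of 0.519, and 17 (9.34%) had an unadjusted p under 0.05. For Spearman's rho the counts were 0 and 8. A single test at the smallest p would have an adjusted p of 0.506, and 11 tests would have to reach it together to pass, so the count of 0 was nearly fixed by the design and says little about whether activating and repressing genes vary together.

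Among activators and repressors, the brighter probe of Tbx2 and the brightest probe of Tbx5 ran against each other in Control (r = -0.81, exact permutation p = 0.0403, rho = -0.89, exact permutation p = 0.0333, n = 6, adjusted p of 0.519 and 0.663). Without the 2 arrays farthest from the Tbx2 median r was -0.66, and in the Tbx3 group r was -0.19 (exact permutation p = 0.515) and rho -0.71 (exact permutation p = 0.136, n = 6). The dimmer Tbx2 probe, 105720070, had the opposite sign with the same Tbx5 probe, at r = 0.62 in Control (exact permutation p = 0.186, n = 6). In the Tbx3 group it had r = 0.10 (exact permutation p = 0.900). The 2 Tbx2 probes had r = -0.47 with each other in Control (exact permutation p = 0.372). The brighter probe of Tbx3 and that of Tbx5 had r = 0.06 in Control (exact permutation p = 0.910, rho = 0.20, p = 0.714) and r = 0.45 in the Tbx3 group (exact permutation p = 0.360, rho = 0.54, p = 0.297, n = 6 each), and without the 2 farthest arrays r was 0.71 and -0.29. With Nppa, the target that both kinds of factor share, the brighter Tbx3 probe had r = -0.42 in Control and 0.22 in the Tbx3 group (exact permutation p of 0.426 and 0.653, n = 6 each), with rho of -0.66 and 0.03 (exact permutation p of 0.175 and 1.0). The dimmer Tbx3 probe, 102760056, had r = 0.83 with Nppa in Control (exact permutation p = 0.0458, adjusted p = 0.519). In the Tbx3 group it had r = -0.27 (exact permutation p = 0.615). At each Tbx3 probe the sign of r differed between the groups, and in each group the probes had opposite signs. Other pairs had r farther from 0. The brighter Tbx2 probe had r of -0.51 and -0.55 with Tbx5 probes 6370484 and 2900132 in Control (exact permutation p of 0.289 and 0.260). In the Tbx3 group these were -0.60 and -0.89 (exact permutation p of 0.246 and 0.0222). Tbx3 probe 102760056 and Tbx20 probe 2230279 had the r farthest from 0, -0.96 in Control (exact permutation p = 0.00694). In the Tbx3 group that pair had r = 0.58 (exact permutation p = 0.2375). None of these values passed after adjustment.

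How far such values can be read is shown by probes of the same gene. Taken as deviations from the group means over all 12 arrays, 7 of 12 same-gene probe pairs had a positive r, from -0.565 to 0.742 with a median of 0.0959. For pairs of different genes 36 of 66 were positive, from -0.774 to 0.65 with a median of 0.0562. The 2 Tbx3 probes had r = 0.07, the 2 Tbx18 probes -0.56, and the Tbx20 probes 4920102 and 2230279 had 0.74. All pairs share the same arrays, and these r values are descriptions without a test.

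**Figure D4:**
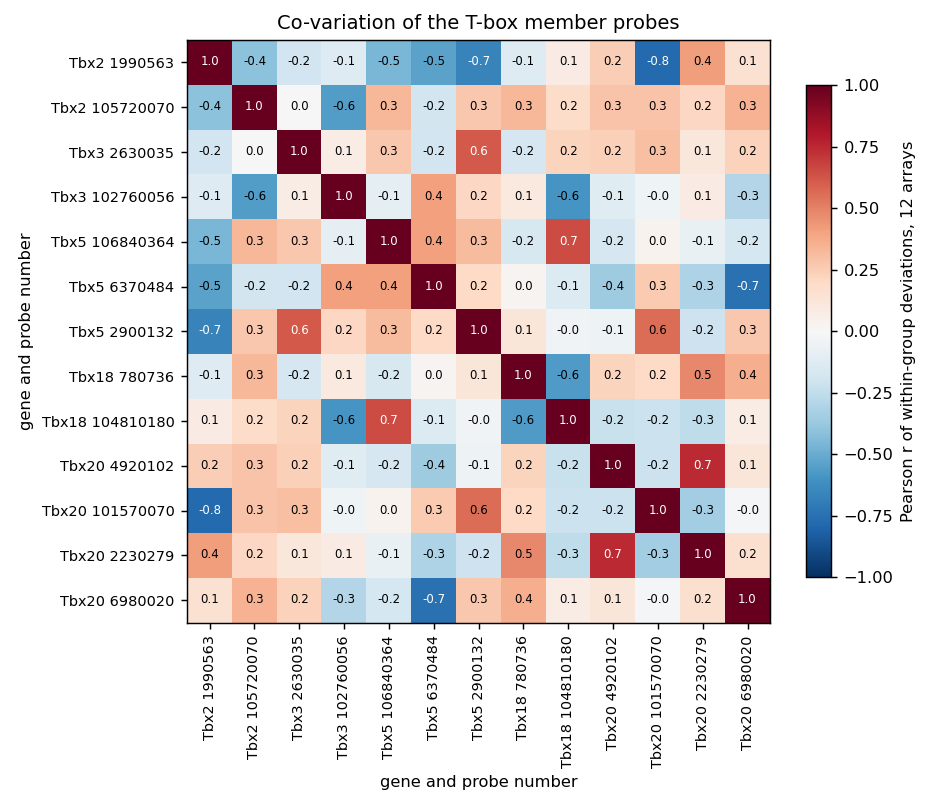
Pearson r between the 13 probes (both axes), from deviations of each array from its group mean over 12 arrays, with red above 0 and blue below. Probes of one gene stand next to each other and do not form blocks. The Tbx5 probes have r of 0.2 to 0.4 with each other, while pairs of different genes reach 0.65. A single Tbx20 pair lies at 0.7.

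Genes whose array-to-array pattern was most like that of each T-box probe were searched among 11946 genes above the median brightness, by the r of within-group deviations over 12 arrays. For the brighter Tbx3 probe these were Ets2 (0.94), Ttyh2 (0.92) and Cxcl12 (0.90), and the most opposed were Dstyk (-0.92), Colec10 (-0.89) and Ms4a6c (-0.89). For the brightest Tbx5 probe they were Acadvl (0.89), an enzyme of fatty acid oxidation, Ica1 (0.88) and Mapkapk2 (0.88), with Srpx2 (-0.91), Svep1 (-0.90), a matrix protein, and Fnbp1l (-0.89) most opposed. For Tbx20 probe 4920102 they were Homez (0.92), Cpb1 (0.91) and Dele1 (0.90), opposed by Zbbx (-0.90), Vapa (-0.89) and Lmbr1 (-0.88). For the brighter Tbx2 probe they were Tgfbi (0.92), Plscr4 (0.90) and Pald1 (0.90), opposed by Gckr (-0.93), Trim8 (-0.91) and Nrl (-0.91). For the brighter Tbx18 probe they were Set (0.87), Nipsnap3b (0.86) and Isg20 (0.85), opposed by Golgb1 (-0.91), Il4i1 (-0.86) and Ccbe1 (-0.85). The other 5 probes above the median brightness had highest values from 0.856 to 0.928 among their 3 closest genes. These are the extremes of many values and carry no test.

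Single arrays stood apart at the brightest probes of Tbx5 and Tbx20, and some genes picked afterwards are given for the same arrays. The other probes of Tbx5 and Tbx20 did not all show this. On Tbx3 array 2, Tbx5 probe 6370484 read 6.51, with array 4 at 6.49. Probe 2900132 read 5.88 there, where that group ran from 5.68 to 6.22. On Control array 5, Tbx20 probe 2230279 was the highest Control, at 6.46, with the next at 6.13. Probes 101570070 and 6980020 read 6.42 and 5.44 there, inside the Control range. Tbx3 array 2, with the brightest Tbx5 probe at 9.11, had the highest Acadvl of its group, 11.34, where the other 5 ran from 10.54 to 10.87. It had the lowest Srpx2 of its group, 6.59, and the lowest summed fibroblast level, 26590. Control array 5, with the brightest Tbx20 probe at 7.46, had the highest Cntn2 of the Controls, 7.05, where the other 5 ran from 5.68 to 6.05. The same array was the highest Control for Tbx3 (6.79), Cacna1g (6.51) and Gja5 (10.51), while its Hcn4 of 5.52 lay within the Control range. These genes were picked after their values were seen. Acadvl and Srpx2 were the closest and the most opposed gene to the brightest Tbx5 probe over these arrays. Their place on Tbx3 array 2 was thus largely fixed by that choice. Arrays this far apart were found in 3 of 62 groups tested, where about 1 in 20 would be so by sampling alone.

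**Figure D5:**
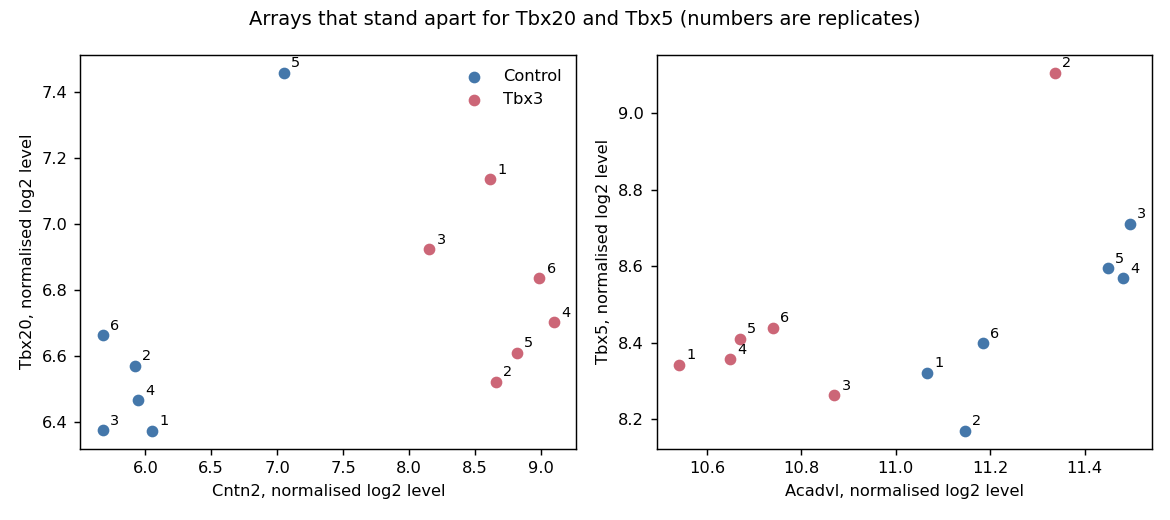
Left, Tbx20 probe 4920102 against Cntn2, and right, the brightest Tbx5 probe against Acadvl, as normalised log2 levels on both axes, with 1 point per array and its replicate number. Control array 5 stands apart on the left at 7.46 and 7.05, and Tbx3 array 2 on the right at 9.11 and 11.34. Acadvl was chosen for its likeness to the Tbx5 probe over these same arrays, and Cntn2 after its values were seen.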

How the data were processed

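Per the labels' protocols, total RNA from atria was extracted on columns, amplified, labelled with biotin and hybridised to Illumina beadchips. The authors deposited 1 log value per probe and array, taken here as natural log, because the highest value, 10.81, is 49514 on base e, just under the scanner ceiling of 65535, and 1795 on base 2. How the authors corrected background and normalized is not stated in the sources. Of 46133 rows, 10 empty and 9 repeated ones were dropped. Dividing by ln 2 put them on a log2 scale, and arrays were then quantile normalized, since interquartile ranges differed by 20.4% between arrays. Probes were named through the platform annotation, and the GRCm38.p6 gene table changed 0 symbols. A gene stood for its brightest probe in gene counts (17658 genes).

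Tbx3 was compared with Control in limma 3.58.1 (lmFit and eBayes, R 4.3.3, 2-sided), calling a probe at a Benjamini-Hochberg adjusted p under 0.05 across the 46114 probes. Levels carry the SD between arrays, and changes the standard error from limma. The number of arrays limits the precision. On simulated data for this comparison (46114 probes, 200 changed), 2% of probes changed 1.25-fold were recovered, 74% at 1.5-fold, and 100% at 2-fold and 3-fold, with 10 false calls. In the data 1592 probes were called, more than were changed in the simulation, so recovery of small changes may differ here.

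The members, the 5 lists of genes tied to T-box factors and the 12 marker lists were chosen with earlier results of these data known. Named were every member probe, the T-box relatives and in each list up to 4 called genes in order of p (otherwise 2, or 3 relatives), the 3 closest and 3 most opposed genes by r, and Nppa, Nppb, Gja1, Gja5 and Hcn4.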

Additional observations from a re-analysis of the deposited data

Results flagged for a closer look

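Among 62 groups of 6 arrays, 1 group for each named probe in each condition, 3 had an extreme array whose gap to its nearest neighbour exceeded 0.625 of the group's range. About 1 group in 20 would do so by sampling alone. Tbx3 array 2 was the highest of its group for Tbx5 probe 106840364, at 9.11, with the next at 8.44 and the lowest at 8.26. Control array 5 was the highest of its group for Tbx20 probe 4920102, at 7.46, with the next at 6.66 and the lowest at 6.37. The same array was the highest Control for Cntn2, at 7.05, with the next at 6.05 and the lowest at 5.68, and it still lay below the lowest Tbx3 array, at 8.15.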

How the results depend on the processing

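Under other settings (values as deposited, median centring, filters at the median brightness and at the brightest 25%, a robust intensity trend, array weights, a replicate block, a block of odd against even numbers, a base 2 reading, the mean of a gene's probes and each array left out) and 1 chosen after seeing the data (without Control 4 and Tbx3 6 together), no T-box probe other than 2630035 of Tbx3 was called. Of 281 recomputed changes 257 kept their direction and side of the threshold.

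Leaving out single arrays, the change ran from -0.48 to -0.38 for Tbx3 probe 2630035, whose call was lost in 6 of 12 cases, and from -0.032 to 0.096 for Tbx3 probe 102760056. It ran from -0.10 to 0.013 for Tbx2 probe 1990563, from -0.098 to 0.076 for Tbx5 probe 106840364, from -0.13 to 0.0014 for Tbx5 probe 2900132, from -0.039 to 0.084 for Tbx18 probe 780736, from -0.0087 to 0.21 for Tbx20 probe 2230279 and from -0.027 to 0.11 for Tbx20 probe 6980020, and the signs of these 7 flipped. Genes that fell among the members ran from 0 to 1, partners that rose from 3 to 6, and growth control genes that rose from 0 to 1. Calls over all probes ran from 1187 to 1613.

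With the mean of a gene's probes, Tbx3 changed by -0.20 and lost its call, Tbx2 turned to 0.060, Tbx5 to -0.049 and Tbx18 to -0.11. Falls then numbered 0 among members, 0 among partners and 4 among chamber genes. Without Control 4 and Tbx3 6 together, Tbx20 probe 6980020 turned to -0.013, 4 chamber genes fell and 1 growth control gene rose. At an adjusted p under 0.01, 896 probes were called. The cause of these shifts was not tested. Filters on brightness removed the probes below them, so those have no value there. Odd and even numbers, whose accessions run together, changed no call of a T-box probe as a block.

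Samples of the 2 groups share replicate numbers, but same-numbered arrays did not deviate together: 0 of 6 pairs had a correlation of deviations over 0.1, and 1 of 6 Tbx3 arrays correlated best with its own number. With the replicate block, Tbx3 probe 2630035 changed by -0.42 (limma adjusted p = 0.0368) and 1580 probes were called in all.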
